A study of Homo sapiens with 6 samples.

Results

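TWIST1, TWIST2, SNAI1, SNAI2, SNAI3, ZEB1, ZEB2, PRRX1 and PRRX2 encode transcription factors of mesenchymal cells, and their transcript levels are described here in 3 libraries labelled as controls of the small cell lung cancer line NCI-H69. The 9 genes were chosen by symbol, with their levels in these libraries already known, and all 9 have a row among the 17170 genes of the deposited table. NCI-H69 is an established human line, known as a floating culture of neuroendocrine character. The study had 3 biological replicates of control genotype, made with a negative control sgRNA that targets no gene, and 3 of a stable SCRMP knockout made by CRISPR/Cas9 in the MIR7-3HG reading frame. The labels place all 6 samples in a single batch and do not say whether either line was grown from a clone. They name a column of the table for each sample, and 0 of the 3 names given for knockout samples were found in the header, so the comparison of knockout with control was not made. All values below are from the 3 control libraries. The labels do not tie the replicates to separate cultures, so each SD measures the spread between these libraries only.

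TWIST proteins are basic helix-loop-helix factors that bind E-boxes (CANNTG) as dimers with E proteins. SNAI and ZEB proteins are zinc finger repressors that recognise the E-box core CAGGTG and silence epithelial adhesion genes such as CDH1. PRRX proteins are paired-type homeodomain factors of limb and craniofacial mesenchyme. All 4 families are active in embryonic mesoderm and neural crest derivatives, and in carcinomas they are known for driving the epithelial to mesenchymal transition (EMT), in which cells lose junctions and gain motility.

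The libraries labelled control lacked most markers of the labelled cell type. Of 15 measured neuroendocrine markers, 2 were detected, against 66.5% of all genes. Detection here means a level of at least 1 TPM in each of the 3 libraries, where TPM are transcript levels divided by length and scaled to the same total in each library. The 2 detected markers were NCAM1 (25.7 TPM ± 3.66, SD, n = 3) and SYT1 (14.3 TPM ± 1.67). The defining markers INSM1, CHGA, SYP, NEUROD1 and DLL3 were all under 1 TPM. The summed level of the 15 ranged from 37.1 to 48.1 TPM. Fibroblast markers were detected in 10 of 13 cases, against 66.5% of all genes, with a list median of 15.0 TPM ± 1.03. They summed to 1535 to 1702 TPM, most of it from POSTN (694 TPM ± 96.2) and COL3A1 (568 TPM ± 19.0), and PDGFRB, MFAP5 and TCF21 were under 1 TPM. Whether the RNA came from NCI-H69 cells as labelled was not tested, and the levels below belong to the libraries so labelled. Their part in the levels of the 9 factors was not tested, and a share of cells of another type cannot be told apart from expression in all cells in bulk RNA. Of 8 measured skeletal muscle markers 2 were detected, PAX3 (6.41 TPM ± 0.768) and PAX7 (4.48 TPM ± 0.146). Of 5 measured neural crest markers 2 were detected, MITF (11.7 TPM ± 0.878) and TFAP2A (10.1 TPM ± 1.16). Of 6 measured endothelial markers 0 were detected, and of 9 measured leukocyte markers 2. Several listed markers had no row and so no level. They were GRP, STMN2 and CALCA (neuroendocrine), MYOD1 and MYF5 (muscle), SOX10, PHOX2A, FOXD3, DBH and TH (neural crest), CDH5 and KDR (endothelial) and CD3E (leukocyte).

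The sequences that follow show the E-box core in promoters of these genes and of epithelial genes, because it is the element through which SNAI and ZEB factors act. Each is read 5′ to 3′ on the strand of its gene and ends before the transcription start, and capitals mark CAGGTG or its other strand, CACCTG. They were taken from RefSeq (GRCh38.p14).
ZEB1, chr10:31318348-31318377, + strand: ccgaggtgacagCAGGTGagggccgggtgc
CRB3, chr19:6464021-6464270, + strand: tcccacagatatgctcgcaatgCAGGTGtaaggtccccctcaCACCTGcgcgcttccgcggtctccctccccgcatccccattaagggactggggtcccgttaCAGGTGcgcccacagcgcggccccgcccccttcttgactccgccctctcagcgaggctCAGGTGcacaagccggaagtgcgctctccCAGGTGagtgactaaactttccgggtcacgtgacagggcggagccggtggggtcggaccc
MUC1, chr1:155192973-155193009, - strand: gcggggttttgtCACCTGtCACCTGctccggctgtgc
OCLN, chr5:69492502-69492531, + strand: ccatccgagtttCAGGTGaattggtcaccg
TJP1, chr15:29969120-29969149, - strand: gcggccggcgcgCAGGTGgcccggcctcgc
RAB25, chr1:156061107-156061136, + strand: catctctccaccCACCTGggccccaggtct

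Of the 9 genes, 7 were detected. Levels in TPM can be compared between genes because they are per length. Over all genes 66.5% were detected. A mean of 10 TPM or more was reached by 6 of the 9, against 44.1% of all genes. The median of the 9 means was 36.2 TPM, and the median gene had 6.87 TPM. The high level of several members is the reason they were chosen, so these counts are a description and no test was made on them. The 9 genes summed to 722, 721 and 769 TPM in replicates 1, 2 and 3. The TWIST pair held 43.5% ± 2.16 (SD, n = 3) of that sum, the PRRX pair 31.4% ± 2.32, the SNAI genes 18.9% ± 0.816 and the ZEB pair 6.17% ± 1.00.

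**Figure D1:**
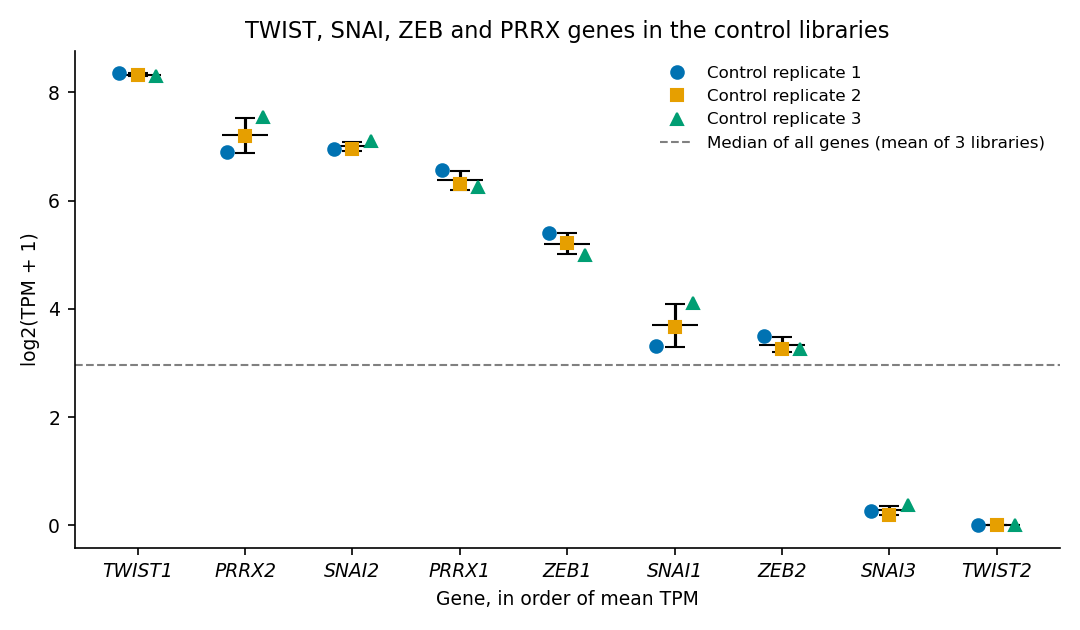
Level of each of the 9 genes on the log2(TPM + 1) scale in control replicates 1, 2 and 3 (circle, square, triangle), with the mean and SD as a black bar and whisker, in order of mean TPM. TWIST1 lies above all others in every library, 7 genes lie above the median gene (dashed line), and SNAI3 and TWIST2 lie at or near 0.

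TWIST1 (gene number 7291, chromosome 7, 19113047 to 19117636, GRCh38.p14) was the highest of the 9. This factor controls cranial mesoderm and suture formation. Its level was 325 TPM in replicate 1, 320.4 in replicate 2 and 316 in replicate 3, a mean of 321 TPM ± 4.86 (SD, n = 3) that ranked 380 of 17170 genes. The libraries were close together, and the coefficient of variation (CV, the SD as a percent of the mean) of 1.52% was lower than that of all but 5.19% of genes with a mean of 10 TPM or more. Its paralog TWIST2 (chromosome 2, 238848085 to 238910534), a factor of dermal mesenchyme, had 0 reads in each of the 3 libraries, and a count of 0 allows up to 3 reads per library for counting error alone. TWIST1 had 6102, 6542 and 6587 estimated reads in the same libraries. No read was assigned to TWIST2 although the paralogs share sequence, so the TWIST signal of these libraries was listed under a single gene. The difference on the log2(TPM + 1) scale was 8.33 ± 0.02 (SD, n = 3), a value that depends on the added 1 because TWIST2 is at 0.

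SNAI2 (gene number 6591, chromosome 8, 48917598 to 48921429) was the dominant SNAI gene. It encodes SLUG, which represses E-cadherin and acts in neural crest migration. SNAI2 had 123 TPM in replicate 1, 122 in replicate 2 and 136 in replicate 3 (127.2 TPM ± 7.82, SD, n = 3, rank 1101). SNAI1, which encodes SNAIL, the founding repressor of CDH1 (chromosome 20, 49982980 to 49988886), had 8.96, 11.7 and 16.3 TPM (12.3 TPM ± 3.68). The lowest SNAI2 library was well above the highest SNAI1 library, and the ratio of both within a library was 13.8 in replicate 1, 10.4 in replicate 2 and 8.38 in replicate 3. The difference on the log2(TPM + 1) scale was 3.30 ± 0.33. On the log2(TPM + 1) scale SNAI1 had an SD of 0.40 over the libraries and SNAI2 of 0.09.

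SNAI3 (chromosome 16, 88677688 to 88686507), the least studied of the SNAI repressors, was below the detection limit used here. It had 0.200, 0.140 and 0.290 TPM, from 4, 3 and 6.39 estimated reads. The 95% Poisson limits of these read numbers ran from 0.619 to 13.6 over the 3 libraries and cover counting error only, so differences between libraries were not detectable at this depth. SNAI2 exceeded SNAI3 by 6.73 ± 0.03 on the log2(TPM + 1) scale, and that difference rests on a few SNAI3 reads.

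ZEB1 (chromosome 10, 31318417 to 31529804) was the higher ZEB gene. Both ZEB proteins carry zinc finger clusters at each end and recruit the CtBP co-repressors. ZEB1 had 41.3 TPM in replicate 1, 36.1 in replicate 2 and 31.1 in replicate 3 (36.2 TPM ± 5.14, SD, n = 3, rank 3577). ZEB2 (chromosome 2, 144384081 to 144520119), the factor mutated in Mowat-Wilson syndrome, had 10.3, 8.57 and 8.56 TPM (9.15 TPM ± 1.02). ZEB1 was 4.0, 4.21 and 3.63 times ZEB2 in the 3 libraries, with no overlap, and the log2(TPM + 1) difference was 1.87 ± 0.11. ZEB2 was the lowest of the 7 detected members and lay only 0.37 above the median gene on that scale.

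Both PRRX genes were abundant, and in TPM each was above the ZEB genes and SNAI1 in every library. PRRX2 (gene number 51450, chromosome 9, 129665647 to 129722674) had 118, 144 and 186 TPM (149.5 TPM ± 34.0, SD, n = 3, rank 905). PRRX1 (gene number 5396, chromosome 1, 170662768 to 170739421), a factor of limb bud mesenchyme and fibroblasts, had 93.7, 78.0 and 74.9 TPM (82.2 TPM ± 10.1, rank 1708). PRRX2 was the higher in each library, and PRRX1 stood at 0.792, 0.540 and 0.403 of it. The log2(TPM + 1) difference of PRRX1 minus PRRX2 was -0.84 ± 0.48. That order depends on the division by transcript length: by estimated reads, which are not per length, PRRX1 had 4509, 4088 and 4001 and PRRX2 1670, 1998 and 2795. In reads, PRRX1 was 2.70, 2.05 and 1.43 times PRRX2, so the sign of the difference was the opposite, at 0.99 on the log2 scale, from reads scaled to equal library totals with 1 added. The lengths behind the authors' TPM are not known here. The table implies 51.1 reads per TPM for PRRX1 and 14.4 for PRRX2.

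**Figure D2:**
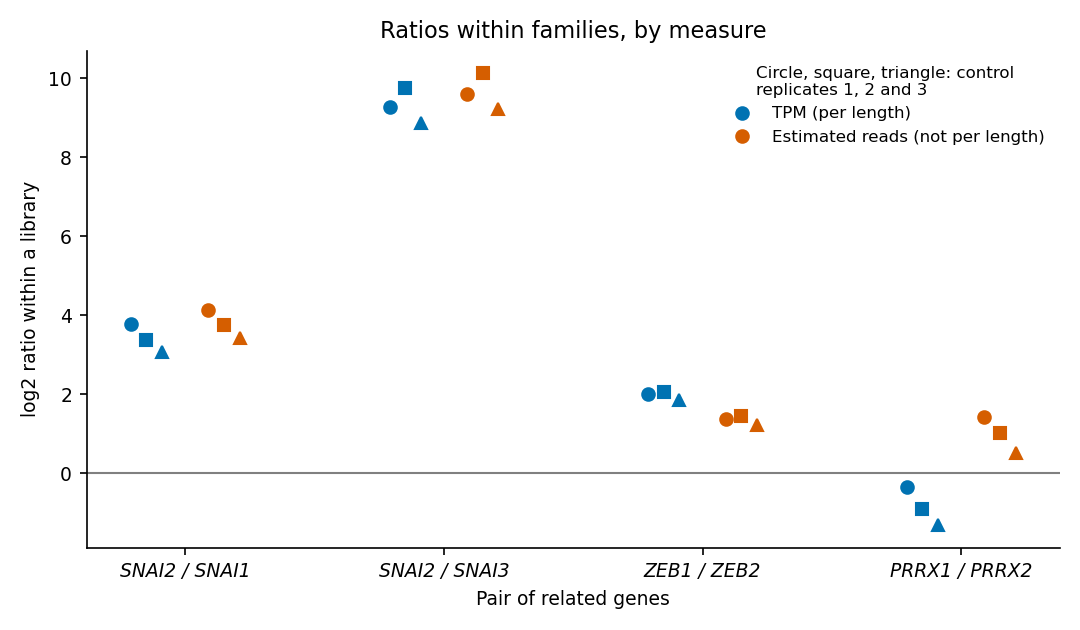
Log2 ratio of related genes within each control library, from TPM (blue, per length) and from estimated reads (orange, not per length). SNAI2 exceeds SNAI1 and SNAI3, and ZEB1 exceeds ZEB2, by both measures, whereas PRRX1 over PRRX2 is below 0 in TPM and above 0 in reads in all 3 libraries. TWIST1 over TWIST2 has no ratio because TWIST2 is at 0.

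From highest to lowest mean TPM the order was TWIST1, PRRX2, SNAI2, PRRX1, ZEB1, SNAI1, ZEB2, SNAI3 and TWIST2. PRRX2 and SNAI2 did not differ beyond their spread: their ranges overlapped, and PRRX2 was higher in 2 of 3 libraries. SNAI1 and ZEB2 overlapped in the same way, with SNAI1 higher in 2 of 3. Each other neighbour in the order was higher in 3 of 3 libraries with no overlap. For SNAI3 over TWIST2 this rests on 4, 3 and 6.39 estimated reads against 0, and their limits for counting error overlap in each library. TWIST1 was 2.14 times the next gene by mean TPM. The order across families also depends on the division by length. By mean estimated reads it was TWIST1, PRRX1, SNAI2, ZEB1, PRRX2, ZEB2, SNAI1, SNAI3 and TWIST2.

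The members did not vary together over the 3 libraries. SNAI1 and PRRX2 had their highest level in replicate 3 and their lowest in replicate 1, and the highest library was 1.81 times the lowest for SNAI1 and 1.57 times for PRRX2. Their CVs of 29.9% and 22.8% were above those of 99.8% and 99.1% of the 7577 genes with a mean of 10 TPM or more, where the median CV was 6.11%. The estimated reads behind SNAI1 were 176, 250 and 355. PRRX1, ZEB1 and ZEB2 had their highest level in replicate 1, with CVs of 12.2%, 14.2% and 11.1%. SNAI2 varied like the median gene, at 6.14%.

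The ratio of replicate 3 to replicate 1 was also compared with reads per TPM, which rise with transcript length. Genes with a mean of 10 TPM or more were split into 3 equal groups by reads per TPM. The median ratio was 1.01 in the 2526 shortest genes, 0.957 in the middle group and 0.878 in the 2526 longest. The groups also differed in level, with medians of 65.2, 34.8 and 23.2 TPM in replicate 1. ZEB1 and PRRX1 belong to the longest group, and their ratios were 0.752 and 0.800, both below its lower quartile of 0.801. SNAI1, PRRX2 and TWIST1 belong to the shortest group. TWIST1, at 0.970, lay between its quartiles of 0.931 and 1.08. SNAI1 and PRRX2, at 1.81 and 1.57, lay above the group's 90th percentile of 1.17. SNAI2, in the middle group, had 1.10, above that group's upper quartile of 1.04. ZEB2, with a mean below 10 TPM and so in no group, had 0.829. The part of length in the members' spread was not tested.

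**Figure D3:**
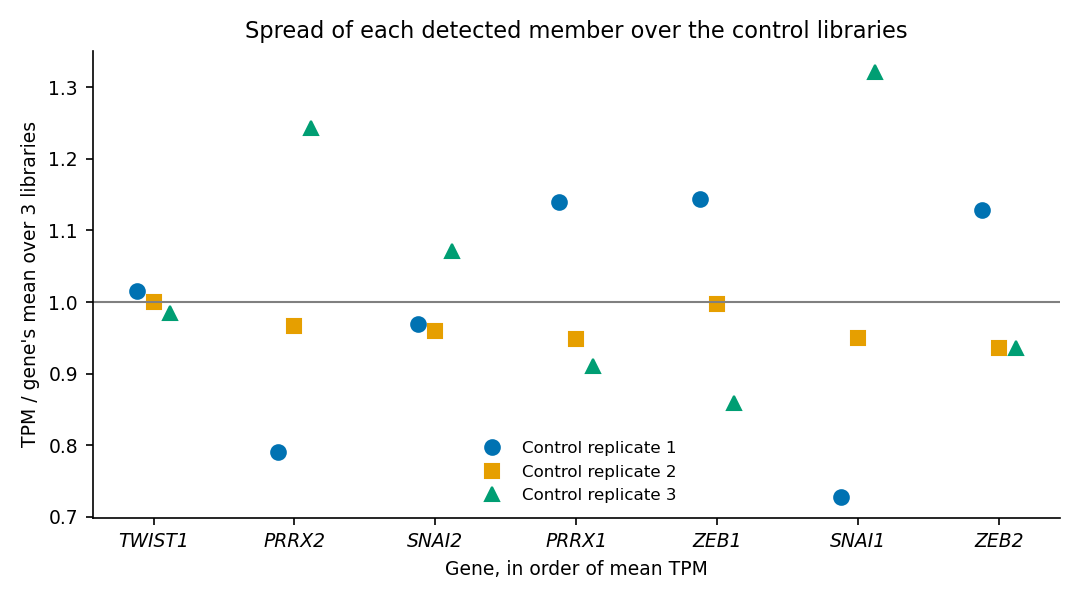
TPM of each detected member divided by its own mean over the 3 control libraries (circle, square, triangle for replicates 1, 2 and 3). TWIST1 stays close to 1, SNAI1 and PRRX2 are highest in replicate 3, and PRRX1, ZEB1 and ZEB2 are highest in replicate 1.

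The genes whose levels were most like those of a member, by Euclidean distance of log2(TPM + 1) over the 3 libraries, were found for TWIST1, SNAI2 and ZEB1. RPL37 and SEC11A lay nearest to TWIST1 (distances of 0.06 and 0.07), TSC22D3 and MPST to SNAI2 (0.03 and 0.04), and FBXO9 and SDAD1 to ZEB1 (0.03 and 0.05). With 3 libraries of 1 condition this likeness is mainly one of level.

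Levels beside the members on the chromosome were also compared. TWIST1 lies between HDAC9 (a histone deacetylase gene, 37.5 TPM ± 4.24) at a distance of 110631 bp on the side of lower coordinates and FERD3L, a related helix-loop-helix gene 27146 bp on the other side with 0.360 TPM ± 0.272. The measured neighbours of SNAI2, at distances of 182287 and 132907 bp, were near 0 or at 0: EFCAB1 had 0.0567 TPM ± 0.0493 and PPDPFL 0 TPM. The TWIST1 and SNAI2 levels were thus not shared by both of their measured neighbours. In contrast, SNAI3 at 0.210 TPM lies 9994 bp from RNF166 with 17.8 TPM ± 1.05 and 14597 bp from MVD with 24.97 TPM ± 0.754. TWIST2 lies between ASB1 with 7.98 TPM ± 0.386 and HDAC4 with 2.97 TPM ± 0.800. PRRX2 exceeded both neighbours, ASB6 with 19.6 TPM ± 0.672 and PTGES with 10.6 TPM ± 0.909.

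The dimer partners of TWIST1 were present. The E proteins TCF12 and TCF3 had 90.9 TPM ± 2.78 and 88.1 TPM ± 4.44 (SD, n = 3), below TWIST1, and TCF4 had 10.3 TPM ± 1.18. The ID proteins bind E proteins but not DNA and so limit such dimers. ID3 (1166 TPM ± 89.7), ID2 (256 TPM ± 22.4) and ID1 (207 TPM ± 7.72) were above the E proteins, and only ID3 was also above TWIST1. ID4 had 0.0700 TPM ± 0.0265. Of these 7 genes, 6 passed the detection limit, against 66.5% of all genes, and their list median was 92.0 TPM ± 2.30 against 6.83 TPM for all genes. Of the related helix-loop-helix genes, 2 of 5 were measured and 0 were detected, FERD3L above and SCX, a tendon factor listed at 0 in all libraries.

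Co-repressors that SNAI and ZEB proteins recruit were detected in 16 of 16 cases, against 66.5% of all genes, with a list median of 33.1 TPM ± 1.64. The highest were the remodelling ATPase SMARCA4 (98.1 TPM ± 3.02), the Polycomb methyltransferase EZH2 (88.1 TPM ± 11.1) and the deacetylase HDAC2 (80.1 TPM ± 7.36). CTBP1, the co-repressor bound by ZEB1 and ZEB2, had 51.1, 50.4 and 49.1 TPM, above ZEB1 in each library. The lowest were the LIM proteins WTIP (3.65 TPM ± 0.418) and LIMD1 (2.62 TPM ± 0.325). Kinases, ubiquitin ligases, deubiquitinases and COP9 signalosome subunits that act on the turnover or activity of SNAI or TWIST proteins were detected in 19 of 19 cases, against 66.5% of all genes, with a median of 14.0 TPM ± 1.79. GSK3B, the kinase that marks SNAIL for degradation, had 11.1 TPM ± 1.19, and FBXL14, a ligase subunit for SNAIL, 12.4 TPM ± 0.455. These are transcript levels, and the proteins were not measured.

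Epithelial factors that oppose the members were mostly low, with 6 of 15 detected, against 66.5% of all genes, and a median of 0.320 TPM ± 0.131. GRHL2, which represses ZEB1, had 0 reads in all 3 libraries, and OVOL2, another repressor of ZEB1, had 0.0833 TPM ± 0.0153 from 1, 1 and 2 reads. The exceptions were KLF5 (48.2 TPM ± 3.88), KLF4 (24.3 TPM ± 5.04) and ESRP1, an epithelial splicing factor that ZEB1 is known to repress. ESRP1 had 43.8, 40.8 and 33.7 TPM (39.4 TPM ± 5.22). ZEB1, with 41.3, 36.1 and 31.1 TPM, was slightly lower than ESRP1 in each library, so both transcripts were present at like levels.

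Epithelial genes, among them reported targets of SNAI and ZEB repression, were detected in 13 of 31 measured cases, below the 66.5% of all genes, with a median of 0.790 TPM ± 0.0954. CDH1 (E-cadherin) had 0.180, 0.230 and 0.200 TPM from 10.1, 14.0 and 12.7 reads. EPCAM, KRT18 and KRT19 were also under 1 TPM. The highest members of the list were the adhesion receptor CXADR (39.4 TPM ± 4.08), the junction scaffold TJP1 (27.3 TPM ± 3.12) and the claudin CLDN7 (16.1 TPM ± 2.42). The lowest were the plakophilins PKP3 and PKP1, at 0.0100 TPM ± 0.0173 and 0.00333 TPM ± 0.00577.

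The E-box core was looked for in epithelial promoters, and genes with it were found both near 0 and well above the median gene. RefSeq gave a promoter, 250 bases before to 50 after the start, for 5 of the 9 factor genes and for 18 of the 31 measured epithelial genes. The promoters of TWIST1, SNAI1, SNAI2, SNAI3 and CDH1 were not available and were not searched. CAGGTG on either strand was in 8 of the 18, and in 19.4% of the 13708 promoters of measured genes. The 8 epithelial genes with the motif had a median of 5.53 TPM and 5 of them were detected. The 10 without it had a median of 1.08 TPM and 5 were detected. Over all measured genes the direction was the opposite, with a median of 4.07 TPM and 1596 of 2657 detected with the motif, and 9.04 TPM and 7866 of 11051 without it. Among the opposing epithelial factors with a promoter, the 5 with the motif had a median of 0.320 TPM and the 4 without it 13.9 TPM. CRB3, a polarity gene with 5 copies, all in the sequence printed above, had 1.48, 0.850 and 0.680 TPM. RAB25, an epithelial trafficking gene with 2 copies, had 0.0500 TPM ± 0.0436. Its second copy lies 37 bases after the start and so is not in the sequence printed above. TJP1 and the tight junction gene OCLN, each with 1 copy, had 27.3 TPM ± 3.12 and 7.10 TPM ± 0.474. MUC1, with 2 copies separated by a single base, had 6.84 TPM ± 0.901. Among the 5 factor promoters the motif was only in that of ZEB1, 57 bases before the start, where CATCTG (other strand CAGATG), an E-box reported for TWIST factors, was found as well, in 10.8% of all promoters. CATATG, its own reverse complement and another TWIST E-box, was in 0 of 5 and in 1.45% of all. A match is a description of these letters and not a measured binding site.

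Base composition was compared in the promoters of the TWIST and PRRX genes that RefSeq gave. TWIST2, at 0 reads, has a window with 66.7% GC and 29 CpG, close to the medians of 64% and 24 over all promoters. PRRX2 has 68.3% GC and 24 CpG, and PRRX1 53% GC and 11 CpG. The PRRX1 window, 170663881 to 170664180, lies inside the span given above for the gene, which begins at 170662768. It thus belongs to a start further into the gene, and the motifs were searched in that same window.

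Mesenchymal genes, among them several reported to rise with these factors, were detected in 25 of 29 cases, against 66.5% of all genes, with a median of 22.4 TPM ± 0.839. All fibroblast markers described above except FBLN1, MFAP5 and TCF21 are also in this list, so the lists are not separate observations. The highest were the intermediate filament gene VIM (4542 TPM ± 87.8), the matricellular gene POSTN (694 TPM ± 96.2) and the collagen gene COL3A1 (568 TPM ± 19.0). CDH2 (N-cadherin), the cadherin usually gained in EMT, was nearly absent, with 0, 1 and 1 reads in the 3 libraries, and CDH11, the mesenchymal cadherin, had 0, 2 and 0 reads. FN1 (fibronectin) had 13.3 TPM ± 1.65. Thus neither CDH1 nor CDH2 reached 1 TPM beside 321 TPM of TWIST1.

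Further transcription factors linked to EMT were detected in 7 of 13 measured cases, a share below the 66.5% of all genes, with a median of 2.16 TPM ± 0.235. The homeobox gene MSX2, a BMP-induced factor of craniofacial mesenchyme, had 397, 415 and 453 TPM, above TWIST1 in each library, and its paralog MSX1 had 87.9 TPM ± 11.98. The RNA-binding factor YBX1, which is abundant in most cells, was the highest at 1184 TPM ± 57.2. FOXC2 (0.0300 TPM ± 0.0300) and FOXQ1 (0.0100 TPM ± 0.0173) were the lowest.

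TGF-beta and BMP ligands induce SNAI, ZEB and TWIST genes in many cell types. Of 28 genes of these pathways 24 were detected, against 66.5% of all genes, with a median of 14.1 TPM ± 1.94. TGFB1 had 38.5 TPM ± 5.70 and TGFB2 6.66 TPM ± 0.602. The receptor gene TGFBR1 had 14.6 TPM ± 3.13, whereas TGFBR2, the receptor that binds TGF-beta ligand first, had 0.130, 0.150 and 0.0700 TPM from 8.97, 8.78 and 4 reads. The BMP branch had values for a ligand and both receptor types, with BMP7 at 32.8 TPM ± 0.442, BMPR1A at 28.3 TPM ± 1.54 and BMPR2 at 10.4 TPM ± 0.921.

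**Figure D4:**
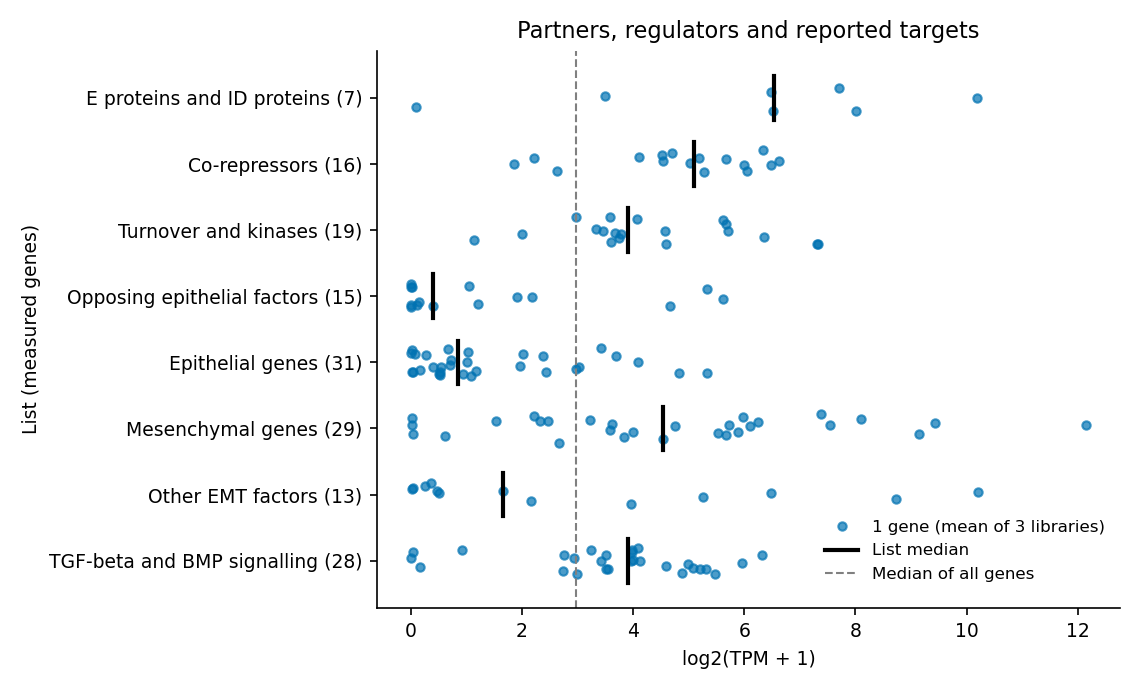
Mean level over the 3 control libraries of each measured gene, on the log2(TPM + 1) scale, for the lists of partners, co-repressors, regulators and reported targets. Black bars are list medians and the dashed line is the median of all genes. Co-repressors and the E and ID proteins lie mostly above that line, and opposing epithelial factors and epithelial genes mostly below it.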

How the data were processed

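Poly(A) RNA libraries were sequenced by BGI on a DNBSEQ-T7 instrument, per the labels' protocols. Per the submitters' processing notes, the tools were HISAT2, StringTie and DESeq2 and the build GRCh38, without roles or versions. The authors deposited TPM, FPKM and read counts per gene and library, per the file headers. The read counts are estimated counts, as their values in the deposited table show. TPM sum to 1000000 in each library, so abundant genes lower all others, and 24.0% of the estimated counts are whole numbers. The libraries held 20941185, 22309228 and 22477571 estimated reads. Per-sample columns that match no label, 12 in number, were used in no step. The planned knockout comparison was not run.

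Computed here were means, SDs, CVs, ranks, log2(TPM + 1) differences, list medians and exact Poisson limits (95%), in Python 3.11.15 (scipy 1.17.1, numpy 2.4.6, pandas 2.3.3, matplotlib 3.10.9). For a count of 0 the upper limit was set to 3 reads in place of the exact limit. The detection rule, ranks and log2(TPM + 1) differences were checked on simulated data, and the other values were not. Positions are from RefSeq, matched by gene number for 17110 genes. The members, the 9 pathway lists and the 6 marker lists were chosen with earlier results of these data known. The text names all members, genes from the top 3 and lowest 2 of each list, a fixed set of regulators, and chromosome neighbours. Other names, and the split by length, were chosen after values were seen. Alternatives were FPKM, reads scaled to equal library totals, a pseudocount of 0.1, TPM without the 100 most abundant genes, other minimums, and leaving out each library.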

Additional observations from a re-analysis of the deposited data

How the results depend on the processing

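No paired analysis was possible because the names stated for knockout columns were not in the table. Of 63 alternative values for the members' levels relative to the median gene, 62 kept their sign. The exception was SNAI1, which moved from 0.73 to -0.25 with reads scaled to equal library totals. With reads scaled to equal library totals, which are not per length, PRRX1 minus PRRX2 reversed from -0.84 to 0.99, ZEB1 minus ZEB2 became 1.34, SNAI2 minus SNAI1 3.66, SNAI2 minus SNAI3 7.03 and TWIST1 minus TWIST2 8.20. TWIST1 minus TWIST2 and SNAI2 minus SNAI3 contain a gene near 0 and moved with the scale: they were 7.54 and 6.05 with FPKM, 11.65 and 8.71 with a pseudocount of 0.1, and 9.13 and 7.36 without the 100 most abundant genes. Leaving out each library in turn gave 8.32 to 8.34 for TWIST1 minus TWIST2, 3.14 to 3.46 for SNAI2 minus SNAI1, 6.71 to 6.74 for SNAI2 minus SNAI3, 1.82 to 1.93 for ZEB1 minus ZEB2 and -1.09 to -0.61 for PRRX1 minus PRRX2. With a minimum of 5 TPM, 9023 genes (in place of 11418), 3 opposing epithelial factors (in place of 6) and 7 epithelial genes (in place of 13) counted as detected. Laxer minimums went the other way, also over all genes. At 0.5 TPM, 12047 genes, 16 epithelial genes and 7 opposing factors counted as detected. At 10 estimated reads, 12541 genes, 19 epithelial genes and 7 opposing factors did. Of the members, 7 were detected at 0.5 and 5 TPM, at 10 reads and without each library in turn. The cause of these shifts was not tested. SNAI3, TWIST2, CDH2 and OVOL2 rest on so few reads that depth limits their levels.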
